A study of Mus musculus with 9 samples.

Results

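The nuclear genes that encode the structural subunits of respiratory complexes II to V were followed in RAW264.7 macrophages given lipopolysaccharide (LPS) with or without skatole. Members were chosen by symbol (Sdha to Sdhd, Uqcr genes, Cyc1, Cox4 to Cox8 genes and Atp5 genes, without pseudogene symbols, Atp5s and Atp5sl) and by a mean of at least 1 TPM over the 9 columns. TPM is a transcript's share of the library, corrected for its length and scaled to a fixed total. Of 49 genes with such symbols 42 met that minimum, among 12819 genes tested and 55401 listed. They comprise 4 genes of complex II, 9 of complex III, 13 of complex IV and 16 of complex V. The genes left out were Cox4i2, Cox6a2, Cox6b2, Cox7b2, Cox8b, Cox8c and a second Atp5o entry, of which Cox6a2 at 0.81 TPM came closest and Cox7a1 at 1.02 TPM just passed. Cox6c2, one of the 42, is annotated as a processed pseudogene.

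RAW264.7 is a wild-type mouse macrophage line derived from a tumour induced by Abelson murine leukaemia virus in a male animal, so all groups are 1 tumour-derived line. The groups of 3 samples each (numbered 5, 6 and 7) received the solvent DMSO alone, DMSO with LPS, or LPS with skatole (LPS + Ska). LPS is a bacterial cell wall component that activates macrophages, and skatole is an indole compound formed by gut bacteria from tryptophan. The labels give 24 h of treatment, as does the study's results text, while its methods section gives a longer one, and the labels give no doses. Nothing in the labels says that the samples of a group were separate cultures, so p-values measure the spread between these samples, which may be technical.

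The 3 columns of LPS, and likewise of LPS + Ska, were not independent. In each gene with values above 0 in all 3 columns, replicate 5 was the midpoint of replicates 6 and 7 within 1e-05 TPM, which held for 17950 of 17950 genes with LPS and for 17658 of 17658 with LPS + Ska. In the DMSO columns this was seen in 10 of 15721 genes. Each treated group therefore held 2 underlying values per gene, which lie midway between replicate 5 and replicates 6 and 7 and are named here by the nearer of these. The tests compared 3 DMSO values with 2 LPS and 2 LPS + Ska values, and the SD of a treated group is that of 2 values. In the sentences below, column values are those of the deposited replicates 5, 6 and 7 in that order.

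In the LPS + Ska group the underlying values of these genes also stood apart from each other. The value near replicate 7 was higher than that near replicate 6 in 36 of 42 members, by a median of 0.15 on the log2(TPM + 1) scale, and by over 0.5 in 5 members, Atp5k, Uqcr11, Atp5j2, Cox5b and Cox8a. With LPS alone it was higher in 31 of 42, by a median of 0.04, and in no member by over 0.5. The gap was larger in short transcripts: with LPS + Ska its median was 0.22 in the 30 members under 1000 nt and -0.0042 in the 12 longer ones. Over the 42 members the gap and the log2 length had a Pearson r of -0.49 and a Spearman rho of -0.61, given as a description since all points share the same 2 values. Over all genes tested with LPS + Ska the median gap was 0.034 under 1000 nt and -0.072 in longer transcripts. Its part in the results on short members was not tested.

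**Figure D1:**
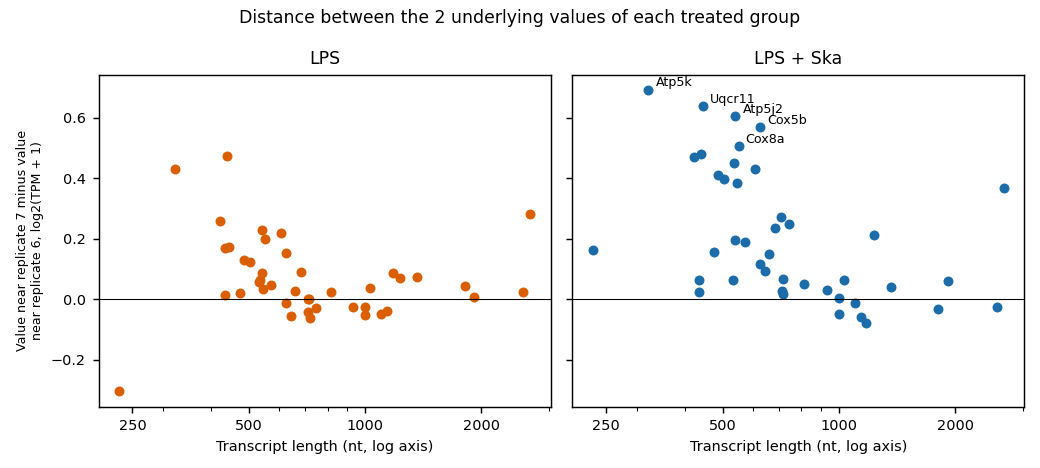
Each point is 1 of the 42 members, with transcript length in nt on a log axis and the value near replicate 7 minus the value near replicate 6 on the log2(TPM + 1) scale on the vertical axis, for LPS (left) and LPS + Ska (right). Atp5k, Uqcr11, Atp5j2, Cox5b and Cox8a, each under 1000 nt, lie above 0.5 with LPS + Ska, and no member does so with LPS.

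The respiratory chain passes electrons from NADH and succinate to oxygen and uses the energy to pump protons out of the mitochondrial matrix. Complex II (succinate dehydrogenase) feeds electrons from succinate into ubiquinone, complex III passes them to cytochrome c, complex IV (cytochrome c oxidase) hands them to oxygen, and complex V (ATP synthase) makes ATP from the returning protons. All complex II subunits are encoded in the nucleus, whereas complexes III, IV and V also contain subunits encoded by mitochondrial DNA. In macrophages, activation by LPS is known for a shift from oxidative phosphorylation towards glycolysis and for a role of succinate in inflammatory signalling.

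The upstream regions of 5 members are shown because these genes followed different courses, described below. Cox7a2 and Uqcrh were higher with LPS, Sdha and Atp5h were lower, and Cox6a1 was lower with LPS and higher again with skatole. Each stretch covers the 140 bases before the annotated 5′ end of the gene, from RefSeq (GRCm38.p6), on the minus strand and written 5′ to 3′. It overlaps no annotated exon. Capitals mark matches on either strand to the letters GCGCANGCG of nuclear respiratory factor 1 (NRF1) or CCGGAAGT of GABPA, regulators of many respiratory chain genes.
Cox7a2, chr9:79759879-79760018: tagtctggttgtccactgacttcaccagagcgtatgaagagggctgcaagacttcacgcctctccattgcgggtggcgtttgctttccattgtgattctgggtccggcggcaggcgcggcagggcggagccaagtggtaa
Uqcrh, chr4:116075072-116075211: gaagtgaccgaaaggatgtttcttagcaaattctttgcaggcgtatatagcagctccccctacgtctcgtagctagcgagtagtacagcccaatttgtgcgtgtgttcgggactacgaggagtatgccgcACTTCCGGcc
Cox6a1, chr5:115348982-115349121: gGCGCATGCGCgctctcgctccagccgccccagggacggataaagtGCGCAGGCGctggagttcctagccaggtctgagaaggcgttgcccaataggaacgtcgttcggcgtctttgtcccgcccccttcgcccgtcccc
Sdha, chr13:74350281-74350420: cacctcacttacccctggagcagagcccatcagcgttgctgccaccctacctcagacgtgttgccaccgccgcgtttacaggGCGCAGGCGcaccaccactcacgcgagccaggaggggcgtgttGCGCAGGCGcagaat
Atp5h, chr11:115419963-115420102: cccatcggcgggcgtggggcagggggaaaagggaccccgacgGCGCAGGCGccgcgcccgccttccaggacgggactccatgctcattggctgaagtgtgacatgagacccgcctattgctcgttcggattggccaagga

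RefSeq promoter windows of 300 bases (250 before and 50 after the start) were found for 31 of the 42 members, 3 of which had 2 windows. The NRF1 letters occurred in 12 of the 34 member windows, against 6.25% of all 32851 windows. The full set of windows was not limited to expressed genes, as the members were, nor matched to them for GC content. The members with this match were Sdha, Sdhd, Uqcrc1, Uqcr11, Cox6a1, Atp5c1, Atp5g2, Atp5g3, Atp5h, Atp5k, Atp5l and Atp5o. Of these 12, 7 were lower with LPS than with DMSO and 1 was higher. Of the 19 other members with a window 5 were lower and 5 higher, beside 33% and 24.8% of all genes tested. Among the 7, the falls of Uqcrc1, Cox6a1 and Atp5g2 did not pass with the trend on GC content removed. On adding skatole 3 of the 12 and 6 of the 19 were higher, and 0 and 1 lower. The shares of all genes were 5.9% and 12.7%. These counts are a description, and no test was made on them. The GABPA letters occurred in 4 windows (Uqcr11, Uqcrh, Cox8a, Atp5h; 3.89% of all windows) and AAGATGG, the YY1 letters, in 3 (Cox7c, Atp5j, Atp5j2; 6.34%). The NF-kB motif occurred in the Sdhb window alone (4.51% of all windows) and TATAAA in that of Atp5l alone (13.6%). A match of letters does not show that a factor binds there.

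Of the 42 members, 18 did not pass the test with LPS and 28 did not on adding skatole. Those that passed went in both directions with LPS, and most of them rose on adding skatole. With LPS 9 members were higher and 15 lower than with DMSO at an adjusted p under 0.05 (limma, Benjamini-Hochberg over all genes tested), where 24.8% of all genes tested were higher and 33% lower. Both LPS counts were near these shares. With LPS + Ska 11 members were higher and 3 lower than with LPS, against 5.9% and 12.7% of all genes. Against DMSO, 13 members were higher and 14 lower with LPS + Ska, against 21.7% and 39.1%. The term called is kept for changes that also passed a fold limit of 1.5 up or 0.67 down. By that rule 4 members were higher and 5 lower with LPS (12.8% and 19.8% of all genes), 7 higher and 1 lower on adding skatole (2.82% and 4.99%), and 7 higher and 5 lower with LPS + Ska than with DMSO (11.4% and 25%). LPS and LPS + Ska were both compared with the same DMSO samples, and the LPS values are shared by the first and second comparison.

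The middle of the distribution moved less than single members did. The median log2 fold change of the members was -0.083 with LPS (all genes tested -0.065), 0.12 on adding skatole (all genes -0.092) and 3e-05 for LPS + Ska against DMSO (all genes -0.17). On adding skatole 34 of the 42 lay above the median of all genes. With median-ratio scaling the member medians became -0.0077, 0.22 and 0.19. With the length trend removed they became -0.088, 0.049 and -0.16. Most members were short, and the medians of all genes under 1000 nt were -0.069, -0.031 and -0.13 in the main fit. In TPM the members together made up between 1.22% and 1.27% of all transcripts in DMSO, 1.12% and 1.14% in the LPS values and 1.19% and 1.31% in the LPS + Ska values. TPM is a share of the library, so a change in RNA per cell cannot be told apart from a change in the rest of the transcriptome, nor fewer cells of a type from less RNA per cell.

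The number of members past the test on adding skatole depended on few values. Without the LPS value near replicate 6 the 11 higher members became 2, without the LPS value near replicate 7 they became 6, and without the LPS + Ska value near replicate 7 they became 5. The 7 called higher became 2 without the LPS value near replicate 6 and 2 without the LPS + Ska value near replicate 7. The 3 lower became 0 without the LPS value near replicate 6 and 1 without the LPS value near replicate 7 or either LPS + Ska value. The 1 called lower became 0 without the LPS value near replicate 6 and 0 without the LPS + Ska value near replicate 6. The median of 0.12 became 0.00032 without the LPS + Ska value near replicate 7 and 0.20 without that near replicate 6. Each such fit had 1 value left in that group, whose spread was assumed to be that of the other groups. A member could thus fail the test with little change in its log2 fold change. Without the LPS value near replicate 6, Cox7a2 was 0.50 and Cox6a1 0.56 on adding skatole, against 0.51 and 0.59 in the main fit. Without the LPS + Ska value near replicate 7, Cox6c was 0.91 and Atp5g1 0.60, against 1.13 and 0.78. The shares of all genes in these fits are not given here. For LPS + Ska against DMSO the 5 called lower became 2 without the LPS + Ska value near replicate 6 and 8 without that near replicate 7. Atp5mpl and Cox7c were the members that passed on adding skatole in each of the 18 alternative fits. For LPS against DMSO 11 members did so (Sdhc, Sdhd, Uqcrh, Cox5b, Cox7a2, Cox8a, Atp5d, Atp5g1, Atp5h, Atp5mpl and Atp5o), and for LPS + Ska against DMSO 17.

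**Figure D2:**
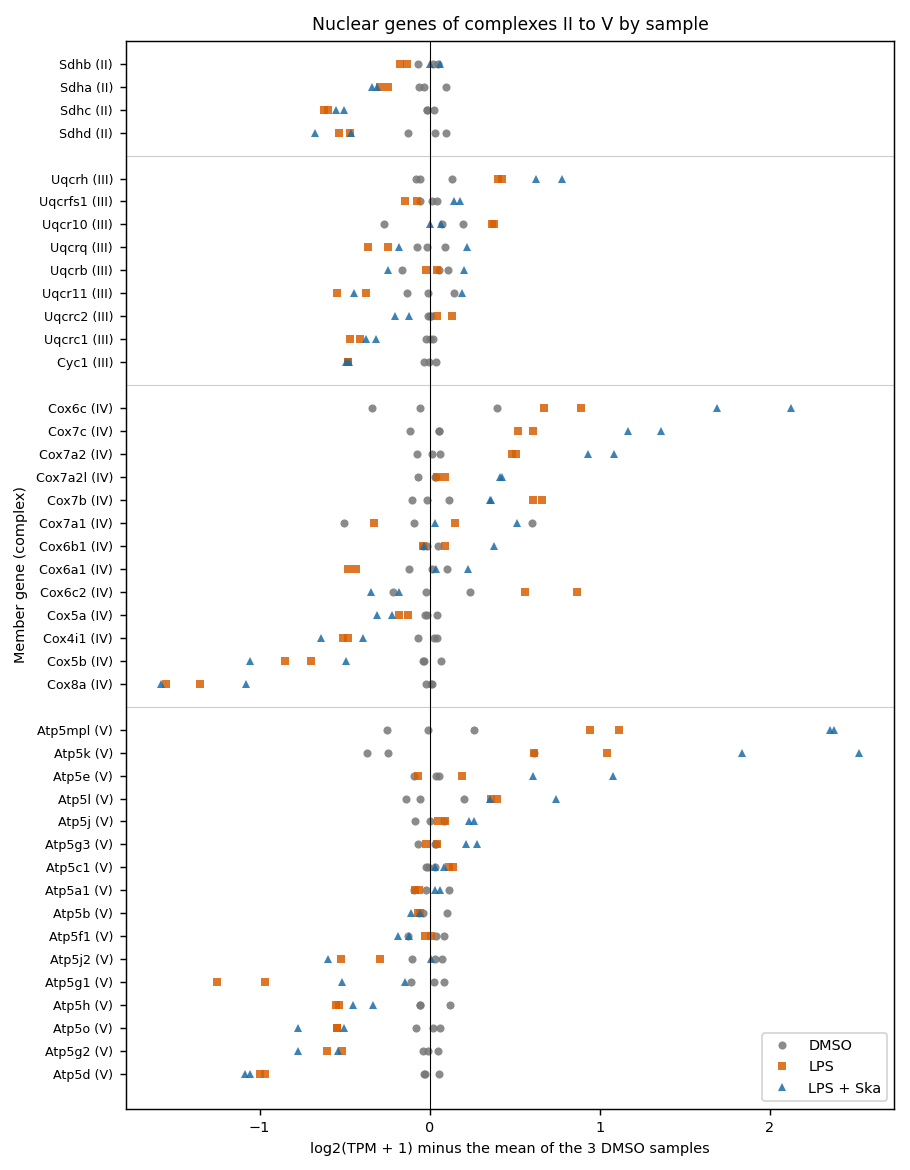
Each row is a member, grouped by complex, and each point is log2(TPM + 1) minus the mean of the 3 DMSO samples, for DMSO (circles), the 2 LPS values (squares) and the 2 LPS + Ska values (triangles). Atp5mpl, Atp5k, Cox6c, Cox7c and Cox7a2 lie farthest right with LPS + Ska. Cox8a, Atp5d and Cox5b are among the farthest left in both treated groups, as is Atp5g1 with LPS.

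Complex II was the complex in which no member passed the test as higher in any comparison of the main fit. Sdha, Sdhc and Sdhd were lower with LPS, none of the 4 passed the test on adding skatole, and the same 3 were lower with LPS + Ska than with DMSO. The median log2 fold changes were -0.38 with LPS, 0.012 on adding skatole and -0.43 for LPS + Ska against DMSO.

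Sdhc (chr1:171127165-171150603, minus strand), a membrane anchor of the complex, was the called member. It read 113, 116 and 113 TPM in the DMSO columns, 74.3, 73.0 and 75.6 with LPS and 78.7, 76.0 and 81.4 with LPS + Ska. All LPS and LPS + Ska columns lay under all DMSO columns. The log2 fold change with LPS was -0.61 (SE 0.058, adjusted p = 7.2e-05), and that on adding skatole 0.081 (SE 0.063, adjusted p = 0.40). Against DMSO, LPS + Ska was lower by -0.53 (SE 0.058, adjusted p = 1.2e-04).

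Sdhd (chr9:50596357-50603812, minus strand), the other membrane anchor, was the most abundant complex II gene. It read 421, 378 and 442 TPM with DMSO, 292, 278 and 306 with LPS and 279, 238 and 320 with LPS + Ska. The columns of both treated groups lay below those of DMSO and overlapped each other. The log2 fold change was -0.50 with LPS (SE 0.087, adjusted p = 0.0015), -0.066 on adding skatole (SE 0.095, adjusted p = 0.66) and -0.57 for LPS + Ska against DMSO (SE 0.087, adjusted p = 6.9e-04).

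Sdha, the flavoprotein that oxidises succinate, fell from 179 ± 11.0 TPM (SD, n = 3) to 149 ± 3.29 (n = 2), a log2 fold change of -0.27 (adjusted p = 0.0086), and stood at 143 ± 2.32 (n = 2) with skatole. Without the LPS value near replicate 6 its adjusted p was 0.082. Sdhb, the iron-sulfur subunit, had the largest difference of the complex on adding skatole. Its columns read 265, 281 and 288 TPM with DMSO, 250, 257 and 243 with LPS and 284, 296 and 272 with LPS + Ska. The LPS + Ska columns lay above those of LPS and among those of DMSO. Its log2 fold changes were -0.15 with LPS (SE 0.058, adjusted p = 0.053), 0.18 on adding skatole (SE 0.064, adjusted p = 0.083) and 0.031 for LPS + Ska against DMSO (SE 0.058, adjusted p = 0.66), none past the threshold. With the deposited columns and a replicate block both steps passed, at adjusted p values of 0.043 and 0.046. With median-ratio scaling Sdhb was 0.29 on adding skatole (adjusted p = 0.011) and 0.22 against DMSO (adjusted p = 0.0050). With the GC trend removed it was 0.30 against DMSO (adjusted p = 0.0052).

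Complex III divided by subunit. With LPS the hinge protein gene Uqcrh and the small subunit gene Uqcr10 rose, and Uqcrc1, a core protein, and Cyc1, cytochrome c1, fell. On adding skatole Uqcrfs1, the Rieske iron-sulfur protein, rose and Uqcrc2, the other core protein, fell. The median log2 fold changes of the 9 genes were -0.11 with LPS and 0.094 on adding skatole.

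Uqcrh (chr4:116066965-116075071, minus strand), whose upstream stretch holds the GABPA letters, was the most abundant of these genes and the called one against DMSO. It read 310, 268 and 272 TPM with DMSO, 378, 372 and 383 with LPS and 461, 411 and 512 with LPS + Ska. The columns of the groups were ordered DMSO, LPS, LPS + Ska with no overlap. The log2 fold change was 0.42 with LPS (SE 0.079, adjusted p = 0.0025) and 0.70 for LPS + Ska against DMSO (SE 0.079, adjusted p = 1.4e-04). That on adding skatole, 0.29 (SE 0.087), missed the threshold at an adjusted p of 0.055, and with the deposited columns and a replicate block it passed (0.28, adjusted p = 0.034).

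Uqcr10 had the largest difference of complex III on adding skatole. Its columns read 256, 279 and 202 TPM with DMSO, 316, 313 and 319 with LPS and 250, 238 and 261 with LPS + Ska. The LPS columns were highest and the other groups overlapped. It rose by 0.38 with LPS (SE 0.12, adjusted p = 0.027), and was -0.34 on adding skatole (SE 0.13, adjusted p = 0.11) and 0.036 for LPS + Ska against DMSO (SE 0.12, adjusted p = 0.81). The rise with LPS was lost in 5 of the 18 alternative fits.

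Cyc1 fell from 287 TPM with DMSO to 205 with LPS and stood at 205 with LPS + Ska, a log2 fold change of -0.48 with LPS (adjusted p = 1.3e-04) and -0.0014 on adding skatole (adjusted p = 0.99). Uqcrc1 fell by -0.44 with LPS (adjusted p = 2.3e-04) and was 0.094 on adding skatole (adjusted p = 0.29). With the trend on GC content removed both falls with LPS were lost (0.064 for Cyc1 and -0.051 for Uqcrc1). Uqcrfs1 rose by 0.27 on adding skatole (adjusted p = 0.023) and Uqcrc2 fell by -0.25 (adjusted p = 0.029), and each failed the test in 5 of the 18 alternative fits. Uqcrb, Uqcrq and Uqcr11, small subunits, passed no test in the main fit. The LPS columns of Uqcrq and Uqcr11 lay below those of DMSO, at -0.30 (adjusted p = 0.053) and -0.46 (adjusted p = 0.051). These falls passed with a minimum of 5 TPM (adjusted p = 0.043 and 0.041), and not with the deposited columns (0.15 and 0.17). With the GC trend removed Uqcrb was -0.44 with LPS (adjusted p = 0.039). Uqcr11 read 44.4, 53.9 and 48.5 TPM with DMSO, 35.3, 31.0 and 39.7 with LPS and 45.7, 25.4 and 66.0 with LPS + Ska.

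Complex IV held genes of opposite courses. With LPS, 5 genes rose (Cox6c, Cox6c2, Cox7a2, Cox7b and Cox7c) and 5 fell (Cox4i1, Cox5a, Cox5b, Cox6a1 and Cox8a). On adding skatole Cox6a1, Cox6c, Cox7a2, Cox7a2l and Cox7c rose, and Cox6c2 and Cox7b fell. The median log2 fold changes of the 13 genes were 0.026 with LPS, 0.15 on adding skatole and 0.17 for LPS + Ska against DMSO. These subunits surround the catalytic core encoded by mitochondrial DNA, and several have tissue-specific forms. The isoforms Cox4i2, Cox6b2, Cox7b2, Cox8b and Cox8c were at or near 0, and Cox6a2 and Cox7a1, known from muscle, were near 1 TPM.

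**Figure D3:**
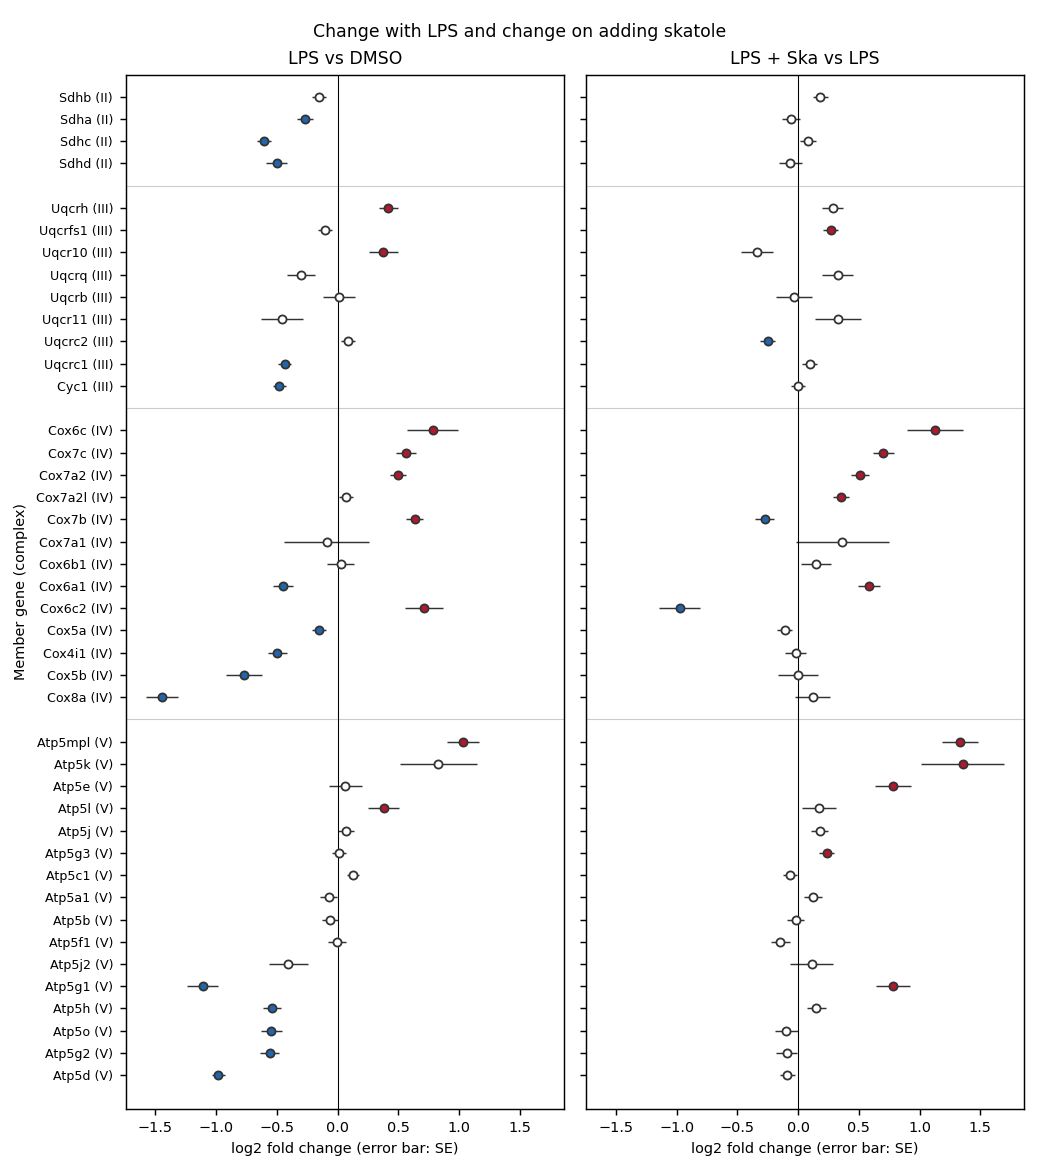
Points are log2 fold changes with SE bars for LPS against DMSO (left) and LPS + Ska against LPS (right), members in rows grouped by complex, filled where the adjusted p was under 0.05 (red higher, blue lower) and white otherwise. Of 24 filled points on the left 15 are blue, and of 14 on the right 11 are red, with Cox6c2, Cox7b and Uqcrc2 the blue ones.

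Cox6c (chr15:35925886-35938246, minus strand), Cox7c (chr13:86044816-86046904, minus strand) and Cox7a2 (chr9:79755361-79759878, minus strand) rose at each step. Cox6c read 80.3, 58.3 and 47.7 TPM with DMSO, 105, 89.3 and 121 with LPS and 233, 164 and 303 with LPS + Ska. The groups did not overlap, though the LPS + Ska columns were widely spread. Its log2 fold changes were 0.78 with LPS (SE 0.21, adjusted p = 0.013), 1.13 on adding skatole (SE 0.23, adjusted p = 0.014) and 1.91 for LPS + Ska against DMSO (SE 0.21, adjusted p = 1.1e-04). Without the LPS + Ska value near replicate 7 the rise on adding skatole was 0.91 (adjusted p = 0.11), and it was also lost without either LPS value and with no filter on low values.

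Cox7c read 158, 178 and 177 TPM with DMSO, 253, 237 and 268 with LPS and 413, 356 and 469 with LPS + Ska. Here too the groups were separate and in that order. The fitted log2 fold changes were 0.56 with LPS (SE 0.082, adjusted p = 6.1e-04), 0.70 on adding skatole (SE 0.090, adjusted p = 0.0027) and 1.27 against DMSO (SE 0.082, adjusted p = 1.0e-05). With the GC trend removed the LPS step was 0.15 (adjusted p = 0.22) and the difference from DMSO 0.83.

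For Cox7a2 the columns read 180, 191 and 197 TPM with DMSO, 268, 263 and 273 with LPS and 383, 344 and 422 with LPS + Ska. They too were separate between groups. The log2 fold changes were 0.50 with LPS (SE 0.067, adjusted p = 4.0e-04), 0.51 on adding skatole (SE 0.073, adjusted p = 0.0040) and 1.01 against DMSO (SE 0.067, adjusted p = 1.1e-05). Without the LPS value near replicate 6 the rise on adding skatole was 0.50 (adjusted p = 0.054). Its relative Cox7a2l, which helps complexes III and IV join into supercomplexes, passed no test with LPS and rose on adding skatole by 0.35 (adjusted p = 0.0088), from 244 ± 5.97 TPM to 313 ± 1.89 (SD, n = 2 each). Without the LPS value near replicate 6 its adjusted p was 0.081, and without that near replicate 7 it was 0.10.

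Cox8a (chr19:7215153-7217616, minus strand), a small membrane subunit in the form used outside muscle, showed the largest fall with LPS among the 42 genes. It read 381, 373 and 382 TPM with DMSO, 138, 119 and 158 with LPS and 152, 99.2 and 206 with LPS + Ska. Both treated groups lay far below DMSO and overlapped each other. The log2 fold change was -1.45 with LPS (SE 0.13, adjusted p = 6.1e-05), 0.12 on adding skatole (SE 0.15, adjusted p = 0.61) and -1.33 against DMSO (SE 0.13, adjusted p = 7.3e-05). After removal of the GC trend it was -0.93 with LPS and -0.84 against DMSO, both past the test and the fold limit.

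Cox5b (chr1:36691449-36693681, plus strand), a matrix-side subunit, followed the same course. It read 83.0, 83.6 and 89.6 TPM with DMSO, 49.6, 44.3 and 55.0 with LPS and 50.5, 30.5 and 70.5 with LPS + Ska. The treated columns lay under those of DMSO, and those of LPS lay within the range of LPS + Ska. The log2 fold change was -0.77 with LPS (SE 0.15, adjusted p = 0.0025), -0.0011 on adding skatole (SE 0.16, adjusted p = 1.00) and -0.77 against DMSO (SE 0.15, adjusted p = 0.0023). Without the LPS + Ska value near replicate 6 the last was -0.49.

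Cox5a, also on the matrix side, was the most abundant complex IV gene. Its columns read 801, 796 and 834 TPM with DMSO, 729, 757 and 701 with LPS and 675, 632 and 718 with LPS + Ska. The treated columns overlapped each other and lay below DMSO. The log2 fold change was -0.15 with LPS (SE 0.055, adjusted p = 0.044), -0.11 on adding skatole (SE 0.061, adjusted p = 0.24) and -0.26 against DMSO (SE 0.055, adjusted p = 0.0036). The fall with LPS did not pass in 10 of the 18 alternative fits. Cox4i1, which binds ATP to regulate the enzyme, fell by -0.50 with LPS (adjusted p = 9.1e-04), from 913 to 646 TPM, and stood at 639 with LPS + Ska. With the GC trend removed the fall was -0.049 (adjusted p = 0.59).

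Cox6a1 (chr5:115345642-115348981, minus strand), a regulatory subunit whose upstream stretch holds the NRF1 letters at 2 places, fell with LPS and rose on adding skatole. It read 354, 412 and 388 TPM with DMSO, 280, 271 and 289 with LPS and 422, 367 and 478 with LPS + Ska. The LPS columns lay below both other groups, which overlapped. Log2 fold changes were -0.45 with LPS (SE 0.082, adjusted p = 0.0019), 0.59 on adding skatole (SE 0.090, adjusted p = 0.0054) and 0.13 against DMSO (SE 0.082, adjusted p = 0.19). With the GC trend removed the LPS step was 0.077 (adjusted p = 0.44), and without the LPS value near replicate 6 the skatole step had an adjusted p of 0.059.

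Cox7b and the pseudogene Cox6c2 took the opposite course. Cox7b (chrX:106015700-106022450, plus strand), needed for assembly of the enzyme, read 196, 228 and 208 TPM with DMSO, 327, 339 and 315 with LPS and 270, 269 and 271 with LPS + Ska. The groups were separate, with LPS + Ska in the middle. Its log2 fold changes were 0.63 with LPS (SE 0.071, adjusted p = 1.6e-04), -0.27 on adding skatole (SE 0.078, adjusted p = 0.044) and 0.36 against DMSO (SE 0.071, adjusted p = 0.0026). With the GC trend removed these were 0.17 (adjusted p = 0.059) with LPS and -0.13 against DMSO, and the fall on adding skatole was lost in 7 of the 18 alternative fits.

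Cox6c2 (chr12:56373593-56373823, minus strand) has an annotated length of 231 nt and shares the symbol stem of Cox6c, so reads could be split between such copies and its level is uncertain. It read 15.8, 11.2 and 13.0 TPM with DMSO, 22.4, 27.4 and 17.5 with LPS and 10.9, 9.53 and 12.2 with LPS + Ska. The LPS columns lay above both other groups. The log2 fold changes were 0.71 with LPS (SE 0.16, adjusted p = 0.0048), -0.97 on adding skatole (SE 0.17, adjusted p = 0.0083) and -0.26 against DMSO (SE 0.16, adjusted p = 0.18). With the length trend removed the rise with LPS was 0.45, inside the fold limit. Without the LPS value near replicate 6 the steps were 0.56 (adjusted p = 0.060) and -0.82 (adjusted p = 0.093). Without the LPS + Ska value near replicate 6 the fall on adding skatole was -0.89 (adjusted p = 0.052). Cox6b1, which faces the intermembrane space, and Cox7a1 passed no test in the main fit. With median-ratio scaling Cox6b1 was 0.36 for LPS + Ska against DMSO (adjusted p = 0.031).

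Complex V held the members with the largest rises. With LPS, Atp5mpl and Atp5l rose, and Atp5d, Atp5g1, Atp5g2, Atp5h and Atp5o fell. On adding skatole Atp5e, Atp5g1, Atp5g3, Atp5k and Atp5mpl rose and no gene fell. The median log2 fold changes of the 16 genes were -0.035 with LPS, 0.14 on adding skatole and -0.019 for LPS + Ska against DMSO.

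Atp5mpl (chr12:111961375-111966977, minus strand), a small proteolipid associated with the membrane part of the enzyme, rose at each step. It read 83.7, 70.7 and 101 TPM with DMSO, 174, 153 and 194 with LPS and 438, 431 and 445 with LPS + Ska. The groups were far apart, with the LPS + Ska columns close together. Fitted log2 fold changes were 1.03 with LPS (SE 0.13, adjusted p = 3.2e-04), 1.33 on adding skatole (SE 0.15, adjusted p = 0.0015) and 2.36 against DMSO (SE 0.13, adjusted p = 5.8e-06).

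Atp5k (chr5:108433244-108434448, minus strand), subunit e at the interface of ATP synthase dimers, had the largest difference of the 42 genes on adding skatole. It read 17.6, 9.21 and 8.36 TPM with DMSO, 20.7, 14.3 and 27.2 with LPS and 55.5, 28.9 and 82.2 with LPS + Ska. The LPS + Ska columns lay above all others and were widely spread, and those of DMSO and LPS overlapped. Log2 fold changes were 0.83 with LPS (SE 0.32, adjusted p = 0.051), 1.35 on adding skatole (SE 0.35, adjusted p = 0.032) and 2.18 against DMSO (SE 0.32, adjusted p = 5.1e-04). The skatole step was lost in 6 of the 18 alternative fits, among them those without the LPS + Ska value near replicate 7 (1.01, adjusted p = 0.20) and without that near replicate 6 (1.70, adjusted p = 0.051). Processed copies of Atp5k exist in the annotation and could share its reads.

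Atp5e (chr2:174461072-174464105, minus strand), subunit epsilon of the rotor stalk, rose on adding skatole. It read 180, 178 and 162 TPM with DMSO, 182, 149 and 214 with LPS and 316, 214 and 418 with LPS + Ska. The LPS + Ska columns lay above DMSO, and their lowest met the highest of LPS. The log2 fold changes were 0.061 with LPS (SE 0.14, adjusted p = 0.72), 0.78 on adding skatole (SE 0.15, adjusted p = 0.011) and 0.84 against DMSO (SE 0.14, adjusted p = 9.0e-04). Without the LPS + Ska value near replicate 7 the skatole step was 0.55 (adjusted p = 0.051), and without the LPS value near replicate 6 it was 0.65 (adjusted p = 0.10).

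Atp5d (chr10:80138632-80145818, plus strand), subunit delta of the same stalk, fell with LPS and stayed low. It read 552, 518 and 521 TPM with DMSO, 267, 272 and 262 with LPS and 252, 246 and 257 with LPS + Ska. All treated columns lay far below DMSO. The fitted log2 fold changes were -0.98 with LPS (SE 0.054, adjusted p = 5.2e-06), -0.087 on adding skatole (SE 0.059, adjusted p = 0.34) and -1.07 against DMSO (SE 0.054, adjusted p = 3.8e-06). After removal of the GC trend they were -0.41 with LPS (adjusted p = 5.0e-04) and -0.52 against DMSO (adjusted p = 1.2e-04), which passed the test and not the fold limit. The other subunits of the catalytic head and stalk, Atp5a1 (alpha), Atp5b (beta) and Atp5c1 (gamma), passed no test in the main fit. Atp5c1 was 0.13 with LPS (adjusted p = 0.064), with LPS columns above those of DMSO. This passed with the deposited columns (adjusted p = 0.036) and with median-ratio scaling (0.21, adjusted p = 0.0046). With that scaling Atp5a1 was 0.22 on adding skatole (adjusted p = 0.039) and 0.23 against DMSO (adjusted p = 0.0068). Atp5b was the most abundant of all 42 genes. Its columns read 1087, 1102 and 1217 TPM with DMSO, 1085, 1079 and 1092 with LPS and 1071, 1027 and 1114 with LPS + Ska, and the groups overlapped. Fitted log2 fold changes were -0.063 with LPS (SE 0.063, adjusted p = 0.42), -0.020 on adding skatole (SE 0.069, adjusted p = 0.87) and -0.083 against DMSO (SE 0.063, adjusted p = 0.29).

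Of the peripheral stalk genes, Atp5o, the oligomycin sensitivity protein, and Atp5h, subunit d, fell with LPS. Atp5o (chr16:91925214-91931687, minus strand) read 463, 451 and 421 TPM with DMSO, 304, 304 and 304 with LPS and 286, 232 and 340 with LPS + Ska. The treated columns lay below DMSO and overlapped. The log2 fold changes were -0.55 with LPS (SE 0.084, adjusted p = 8.4e-04), -0.096 on adding skatole (SE 0.093, adjusted p = 0.51) and -0.64 against DMSO (SE 0.084, adjusted p = 3.1e-04). Removing the GC trend made the last -0.42, inside the fold limit. Atp5h fell by -0.54 with LPS (adjusted p = 3.9e-04) and was 0.15 on adding skatole (adjusted p = 0.22). Atp5f1, subunit b, and Atp5j, coupling factor 6, passed neither step, and Atp5j was higher with LPS + Ska than with DMSO by 0.25 (adjusted p = 0.0097). Atp5l, subunit g, rose with LPS by 0.38 (adjusted p = 0.035), which did not pass in 9 of the 18 alternative fits. Atp5j2, subunit f, passed no test in the main fit. It was -0.41 with LPS (adjusted p = 0.061), with LPS columns below those of DMSO. This passed with a minimum of 5 TPM (adjusted p = 0.048) and not with the deposited columns (0.20).

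The c ring, the part of ATP synthase that proton flow turns, is encoded by Atp5g1, Atp5g2 and Atp5g3, which give the same mature protein after their targeting peptides are removed. Each took a different course. Atp5g1 (chr11:96068852-96075670, minus strand) read 84.7, 93.2 and 97.3 TPM with DMSO, 42.1, 33.7 and 50.4 with LPS and 73.2, 54.3 and 92.0 with LPS + Ska. The LPS columns lay below both other groups, which overlapped. Its log2 fold changes were -1.11 with LPS (SE 0.13, adjusted p = 1.9e-04), 0.78 on adding skatole (SE 0.14, adjusted p = 0.0093) and -0.33 against DMSO (SE 0.13, adjusted p = 0.052, and 0.042 for the deposited columns with a replicate block). Without the LPS + Ska value near replicate 7 the skatole step was 0.60 (adjusted p = 0.059), and without the LPS value near replicate 6 it was 0.64 (adjusted p = 0.090).

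Atp5g2 (chr15:102662864-102672352, minus strand) read 380, 403 and 387 TPM with DMSO, 264, 248 and 281 with LPS and 248, 208 and 289 with LPS + Ska. The treated groups overlapped and lay below DMSO. Its log2 fold changes were -0.56 with LPS (SE 0.077, adjusted p = 4.6e-04), -0.094 on adding skatole (SE 0.085, adjusted p = 0.47) and -0.65 against DMSO (SE 0.077, adjusted p = 1.8e-04). With the GC trend removed the LPS step was -0.12 (adjusted p = 0.16) and the difference from DMSO -0.25, inside the fold limit. Atp5g3 was 0.011 with LPS (adjusted p = 0.89) and rose by 0.24 on adding skatole (adjusted p = 0.038), which did not pass in 8 of the 18 alternative fits.

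The make-up of the c ring transcripts differed between the groups. Atp5g1 gave between 7.5% and 8.8% of the summed TPM of these genes with DMSO, 3.9% and 4.8% with LPS and 6.1% and 7.2% with LPS + Ska. Atp5g2 gave between 33.5% and 35.1% with DMSO, 26.5% and 28.4% with LPS and 21.8% and 23.5% with LPS + Ska. Atp5g3 gave between 56.1% and 59.0% with DMSO, 66.8% and 69.5% with LPS and 69.2% and 72.1% with LPS + Ska. No range of Atp5g2 overlapped another, whereas for Atp5g3 the ranges of the treated groups met. These shares are a description with no test.

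**Figure D4:**
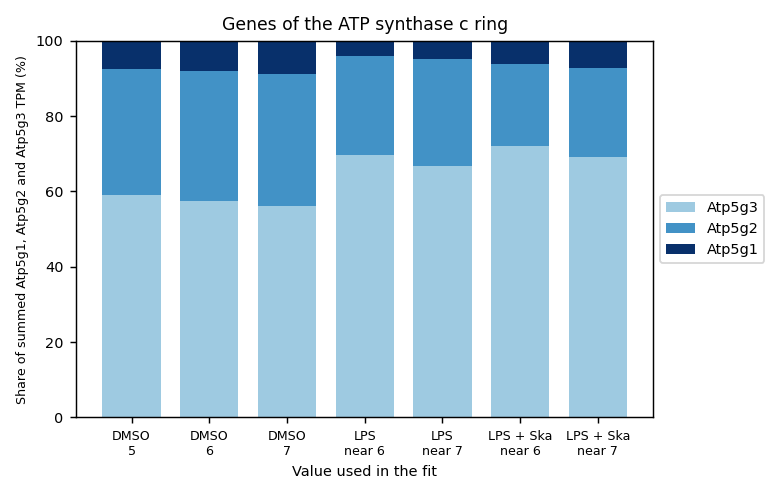
Bars give each gene's share, in percent, of the summed TPM of Atp5g1, Atp5g2 and Atp5g3 in the 3 DMSO samples and the 2 underlying values of each treated group. The Atp5g2 share is lower in each LPS value (26.5% and 28.4%) than in the DMSO samples and lower again with LPS + Ska (21.8% and 23.5%).

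**Figure D5:**
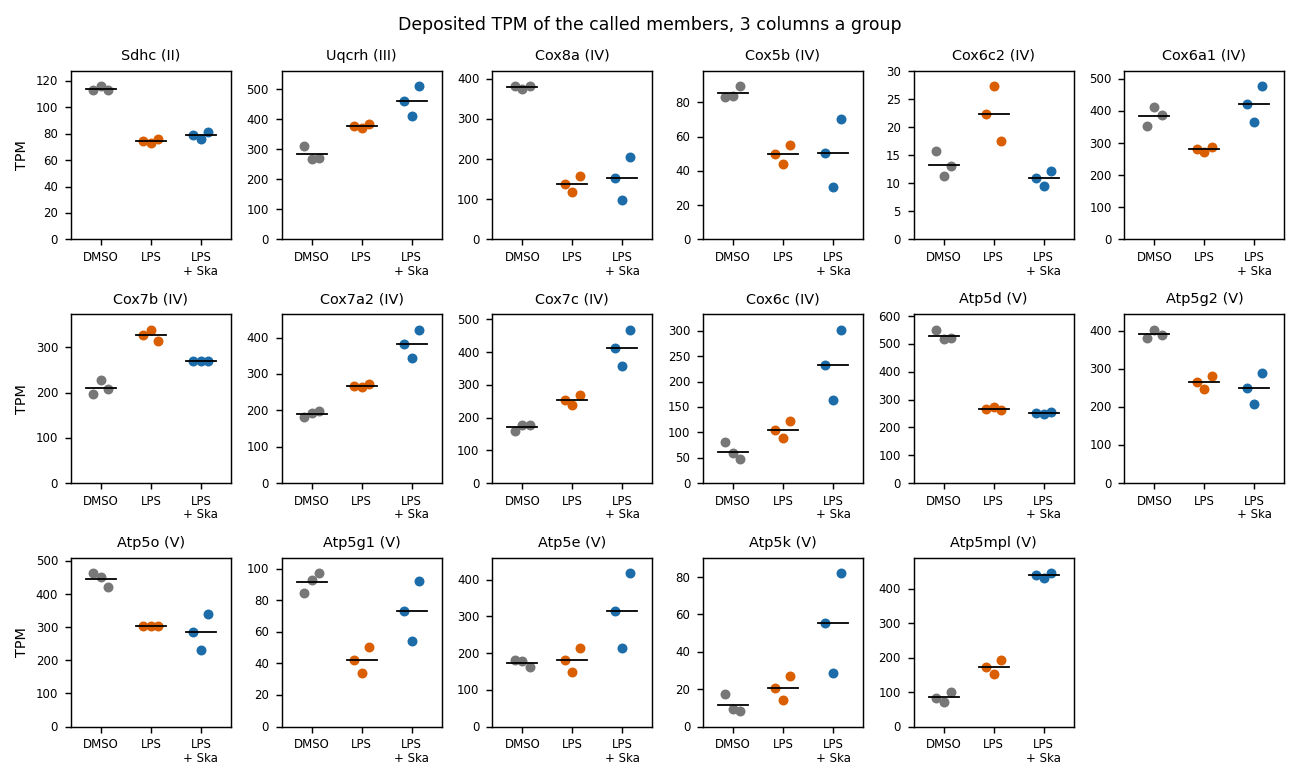
Deposited TPM, on axes starting at 0, of the 17 members called in any comparison, with 1 point per column (replicates 5, 6 and 7 from left to right) and a line at the mean. Cox6c, Cox7c, Cox7a2 and Atp5mpl rise over the groups, Cox8a, Cox5b and Atp5d are low in both treated groups, and Cox6a1 and Atp5g1 are lowest with LPS.

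Sorted by both steps, 13 members fell with LPS and passed no test on adding skatole, and all 13 were lower with LPS + Ska than with DMSO. They are Sdha, Sdhc, Sdhd, Uqcrc1, Cyc1, Cox4i1, Cox5a, Cox5b, Cox8a, Atp5d, Atp5g2, Atp5h and Atp5o. Atp5g1 and Cox6a1 fell and then rose. Cox6c, Cox7a2, Cox7c and Atp5mpl rose at both steps, and Cox6c2 and Cox7b rose and then fell. Atp5e, Atp5g3, Atp5k, Cox7a2l and Uqcrfs1 (higher) and Uqcrc2 (lower) passed the test on adding skatole and not with LPS. Atp5l, Uqcr10 and Uqcrh passed it with LPS and not on adding skatole. Whether the steps of these genes differ was not tested. A further 12 members passed at neither step. Those lower with LPS had a median transcript length of 710 nt and a median GC content of 54.1%, against 540 nt and 49.3% for those higher. Over the 42 members the log2 fold change with LPS and the GC content had a Pearson r of -0.45 and a Spearman rho of -0.42, given as a description of genes measured in the same libraries.

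Genes that work with the complexes were read from lists of assembly factors, electron carriers, regulators and mitochondrially encoded subunits. Of 37 assembly factors tested (38 listed) 10 were higher and 9 lower with LPS, beside 24.8% and 33% of all genes tested. On adding skatole 3 were higher and 2 lower, beside 5.9% and 12.7% of all genes, with median log2 fold changes of 0.12 for LPS and 0.021 for skatole. Cox14, which couples synthesis of the mitochondrially encoded COX1 protein to assembly of complex IV, was called on adding skatole. It stood at 27.1 ± 2.47 TPM (SD, n = 3) with DMSO, fell to 15.1 ± 0.0055 (n = 2) with LPS and rose to 28.1 ± 1.95 (n = 2) with LPS + Ska. The steps were -0.80 (SE 0.10, adjusted p = 2.7e-04) and 0.85 (SE 0.11, adjusted p = 0.0027), a fall and return as in Cox6a1.

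Of 19 electron and phosphate carriers and ubiquinone synthesis genes tested (20 listed) 3 were higher and 10 lower with LPS (24.8% and 33% of all genes), and 1 was higher and 1 lower on adding skatole (5.9% and 12.7%). The lower one, Pdss2, which helps make the ubiquinone side chain, fell by -0.68 (SE 0.16, adjusted p = 0.023) from 12.9 ± 0.035 to 7.81 ± 1.64 TPM (SD, n = 2 each). Of 12 regulators tested (13 listed) 5 were higher and 4 lower with LPS, and 1 was lower on adding skatole, beside the same shares. Nrf1, the gene of the factor whose letters were searched above, was 0.042 with LPS (adjusted p = 0.74) and -0.35 on adding skatole (adjusted p = 0.064). Gabpa rose with LPS by 0.51 (adjusted p = 0.0011), though an exon of it overlaps Atp5j on the opposite strand and the counting is not stated to use strand.

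Other genes of complex IV were read from 4 symbols, of which 3 were tested. Ndufa4, named for complex I but known as a complex IV subunit, rose from 231 ± 14.4 TPM (SD, n = 3) to 342 ± 4.52 (n = 2) with LPS, by 0.57 (adjusted p = 3.9e-04), and stood at 365 ± 32.6 (n = 2) with LPS + Ska, 0.091 higher (adjusted p = 0.48). AA467197, known as an LPS-induced counterpart of Ndufa4, was listed at 0 in all 9 columns. Of the 6 mitochondrially encoded genes of complexes III to V, 3 were higher and 0 lower with LPS (24.8% and 33% of all genes), and 1, mt-Atp8, was also higher on adding skatole (5.9%). Mt-Atp8, a short membrane subunit of ATP synthase, rose by 0.95 with LPS (SE 0.11, adjusted p = 2.3e-04) and by 0.92 on adding skatole (SE 0.12, adjusted p = 0.0034). Mt-Atp6, whose reading frame overlaps that of mt-Atp8 on the same transcript, rose by 0.66 with LPS (adjusted p = 0.0028) and was 0.036 on adding skatole (adjusted p = 0.88), so reads in the overlap make this pair uncertain.

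The 38 nuclear Nduf genes (Ndufa4 among them, the rest named for complex I) stood at 6 higher and 21 lower with LPS (24.8% and 33% of all genes), 8 higher and 0 lower on adding skatole (5.9% and 12.7%), and 10 higher and 16 lower for LPS + Ska against DMSO (21.7% and 39.1%). Their median log2 fold changes were -0.25, 0.094 and -0.12, beside -0.083, 0.12 and 3e-05 for the members of complexes II to V. The difference between these sets was not tested.

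The cells carried macrophage markers in all columns, with Cd68 between 574 and 857 TPM and Lyz2 between 4219 and 10207. Genes that mark T cells (Cd3e, Cd3d), epithelium (Epcam, Krt8) and fibroblasts (Pdgfra) were at 0, and the other markers of non-macrophage cells reported here stayed under 0.7 TPM. Il6 and Nos2, genes that LPS induces, were at 0 in DMSO. Il6 averaged 4.35 TPM with LPS and 0.26 with LPS + Ska, and Nos2 37.5 and 28.5. Il1b averaged 0.16 TPM with DMSO, 28.1 with LPS and 10.2 with LPS + Ska, and Acod1 6.41, 216 and 178. Library totals in TPM are the same in each column by construction, so sequencing depth is unknown and no counting interval can be given. Several members share exon positions with a gene on the opposite strand, among them Uqcrc2, Cox4i1, Cox6c, Atp5d and Atp5o. On the same strand Atp5o shares them with its second entry, at 0 TPM in all columns, and Atp5g2 with Mir688. The levels of these members are uncertain to that extent.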

How the data were processed

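RNA-seq of RAW264.7 macrophages was deposited as a table of TPM per gene made by the authors. The submitters' processing notes name fastp 0.20.1, HISAT2 2.2.1, StringTie 2.0 and the mm10 build. The annotation, and how the tied columns arose, are not given in the sources used here. The members and gene lists were chosen with earlier results of these data known.

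From the deposited TPM, log2(TPM + 1) was fitted with limma 3.58.1 in R 4.3.3 (a linear model with moderated variances that follow the intensity) over 12819 genes with a mean of at least 1 TPM. The fit held 3 DMSO samples and, for LPS and LPS + Ska, 2 values each, placed at replicate 5 plus 0.5 of the distance to replicate 6 or to replicate 7. Where replicate 6 or 7 was at 0, the other exceeded replicate 5 by 1.0 to 2.0 times its value, as underlying values of at least 0 require. Adjusted p (Benjamini-Hochberg) under 0.05 passed, and called changes also had a fold over 1.5 or under 0.67. Fold changes are on the log2(TPM + 1) scale, which understates changes of low genes. Gene positions, lengths and GC content come from GENCODE (GRCm38), and promoter sequences from RefSeq. All members are named; full values are given for those called in any comparison, those most changed by skatole and the most abundant in each complex. From the lists, genes called on adding skatole, Ndufa4 and AA467197 were named, and mt-Atp6, Nrf1 and Gabpa were added after their values were seen. The fit was tested on simulated data.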

Additional observations from a re-analysis of the deposited data

How the results depend on the processing

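Over 18 alternative fits (deposited columns with and without a block, pseudocount 0.1, no filter, a minimum of 5 TPM, median-ratio scaling, rescaling without mitochondrial-genome and ribosomal protein genes, the compared groups alone, no intensity trend, length or GC trend removed, and 7 fits leaving out 1 value), the member changes that passed the test kept their direction and their side of the threshold in 1062 refits, were no longer past it in 102 and changed sign in 6. The signs changed with the GC trend removed were those of Cox6a1 (0.077) and Cyc1 (0.064) with LPS, and of Cox7b (-0.13), Cyc1 (0.035) and Uqcrc1 (0.014) for LPS + Ska against DMSO. With median-ratio scaling Uqcrc2 for LPS + Ska against DMSO became 0.024.

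For LPS against DMSO the member median was -0.0077 with median-ratio scaling and 0.037 with the GC trend removed. With median-ratio scaling 13 members were higher, beside 3809 of the 12819 genes tested (3184 in the main fit). On adding skatole, 7 members were higher and 4 called higher with no filter. With median-ratio scaling 16 were higher, beside 1261 of all genes tested (756 in the main fit). For that step 1 was lower with median-ratio scaling (1016 of all genes) and 1 with no intensity trend. Its median was 0.22 with median-ratio scaling and 0.049 with the length trend removed. For LPS + Ska against DMSO 18 members were higher with median-ratio scaling, beside 3930 of all genes tested (2777 in the main fit). Called lower were 3 with median-ratio scaling (2256 of all genes) and 3 with the GC trend removed. For the fits with no filter, no intensity trend or the GC trend removed, counts over all genes are not given. The median was 0.19 with median-ratio scaling and -0.16 with the length trend removed. The cause was not tested. Median-ratio scaling moved the share of higher genes among all called from 39.2% to 47.9% with LPS, from 36.1% to 54.4% on adding skatole and from 31.2% to 49.2% for LPS + Ska against DMSO.

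Leaving out 1 value at a time, members higher with LPS ranged from 6 to 9, lower from 13 to 18, called higher from 3 to 5, called lower from 5 to 6, and the median from -0.13 to -0.056. On adding skatole these ranged from 2 to 12, 0 to 4, 2 to 8, 0 to 1, and 0.00032 to 0.20. For LPS + Ska against DMSO they ranged from 10 to 13, 13 to 16, 7 to 8, 2 to 8, and -0.12 to 0.032.

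Same-numbered columns of LPS and LPS + Ska correlated in their deviations (0.38, 0.15 and 0.13), and those with DMSO between -0.032 and 0.080. The 3 tied columns of a group hold a single independent deviation, and that of replicate 5, the midpoint, follows from the others. Between the treated groups these correlations therefore cannot decide whether the numbers pair samples. The main fit used no pairing, since the study names none. With the replicate block on the deposited columns 8 members were higher and 15 lower with LPS, 13 higher and 3 lower on adding skatole, and 13 higher and 14 lower for LPS + Ska against DMSO.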
